A study of Homo sapiens with 6 samples.

Results

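The simple epithelial keratins were followed in 6 RNA sequencing libraries: 3 from MKN45 cells given an adenovirus with Golph3 shRNA (short hairpin RNA) and 3 from MKN45 cells given an adenovirus with a control shRNA. The set is 5 gene identifiers (IDs) of the 34866 in the deposited table of estimated counts, chosen by ID: Krt7 (ENSMUSG00000023039), Krt8 (ENSMUSG00000049382), Krt18 (ENSMUSG00000023043), Krt19 (ENSMUSG00000020911) and Krt20 (ENSMUSG00000035775). Of these, 4 passed the filter on low counts and were tested, and Krt20 had no counts. MKN45 is a human gastric adenocarcinoma line that the study describes as lacking MUC6, and the comparison asks what changes in gene expression when Golph3, a protein of the Golgi membrane, is targeted, with the control hairpin as the baseline. The labels give RPMI1640 medium with serum and antibiotics for all 6 samples and state no time after infection, no viral dose and no number of hairpins. They also do not say whether the 3 samples of a group are separate cultures, so a p-value here sets a difference against the spread of these samples, which may be technical spread alone.

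Keratins are the intermediate filament proteins of epithelial cells. A filament is built from pairs of unlike chains, an acidic type I chain with a basic type II chain, and a chain without a partner is usually degraded. Krt8 (type II) with Krt18 (type I) is the basic pair of simple, single-layered epithelia such as the lining of the stomach and intestine; it gives the cell mechanical support and is known to protect epithelial cells from stress. Krt7 (type II) and Krt19 (type I) add to this pair in ducts and glands, and Krt19 is the keratin that lacks most of the tail domain. Krt20 (type I) marks the surface cells of the stomach and the differentiated cells of the intestine. Pathologists use Krt7 and Krt20 together to sort adenocarcinomas by origin.

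The 3 Golph3 shRNA libraries held 4977645 to 5676169 estimated counts and the 3 control libraries 6287037 to 7355140. The IDs are mouse identifiers, whereas the labels give a human line, and the table alone does not show whether human reads were assigned to mouse genes or mouse cells were sequenced. A level below is therefore the number of reads assigned to an ID, expressed in CPM, which sets each count against the size of its own library after trimmed mean (TMM) scaling, and only the same ID is compared between libraries. The table carries no symbols for other IDs, so the level of GOLPH3, which would check the knockdown, and lists of epithelial, stromal and squamous markers, other keratins and keratin partners were not analysed here.

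All 4 tested keratins, Krt7 and Krt8 of type II and Krt18 and Krt19 of type I, fell in the Golph3 shRNA libraries. The decreases ran from 1.51-fold for Krt8 to 1.97-fold for Krt19. Each of the 4 was called lower (adjusted p below 0.05 by edgeR's quasi-likelihood test, with Benjamini-Hochberg adjustment over 11400 IDs), where 33.9% of all tested IDs were called in either direction, 17.8% lower and 16.1% higher. For each of the 4, every Golph3 shRNA value lay below every control value, as for 24.2% of all tested IDs. All 4 were both called lower and at least 1.5-fold lower, as were 9.13% of all tested IDs. Krt8 met the 1.5-fold limit only narrowly (1.505-fold), and under some other settings its decrease was smaller than 1.5-fold. The median log2 fold change was -0.70 over the 4 keratins and 0.0019 over all tested IDs. The members were chosen with earlier results of these data known, so their standing against all tested IDs is description only. In bulk RNA, fewer cells that express a keratin and less keratin RNA per cell cannot be told apart.

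**Figure D1:**
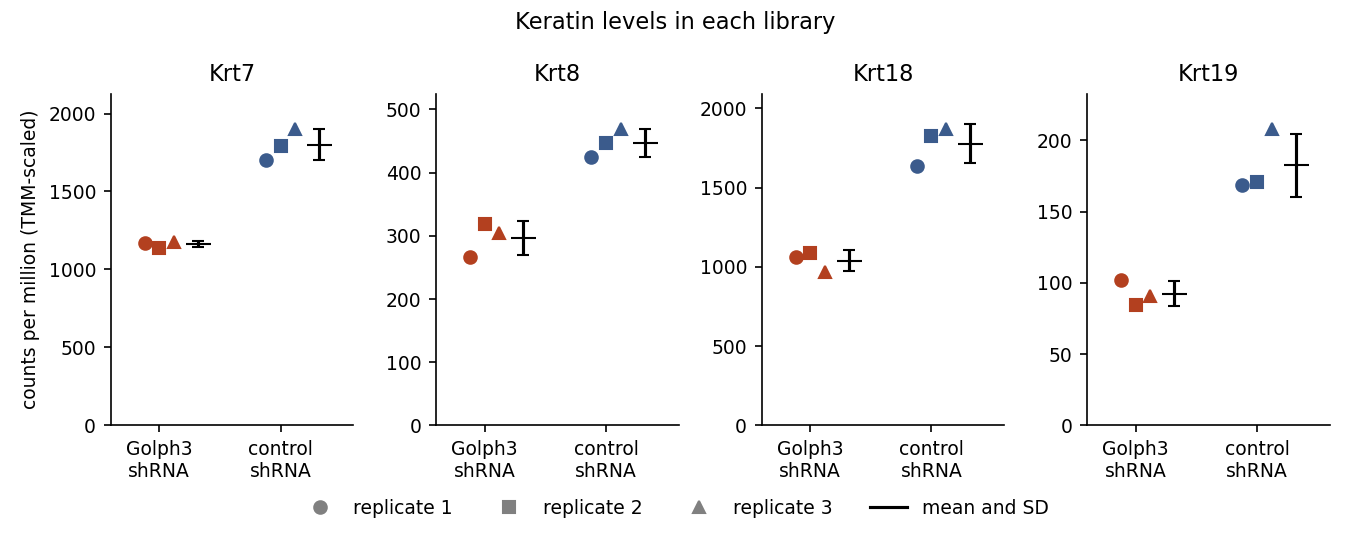
Level of each tested keratin in CPM (y axes start at 0 and differ between panels) in the 3 Golph3 shRNA and the 3 control shRNA libraries; symbols are libraries, the bar beside them the mean and SD. In every panel the highest Golph3 shRNA library lies below the lowest control library, for example 1176 against 1704 CPM for Krt7.

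Among the type II chains, Krt7, the partner chain typical of glandular epithelium, had 1169, 1139 and 1176 CPM in Golph3 shRNA replicates 1, 2 and 3, against 1704, 1794 and 1900.4 CPM in control replicates 1, 2 and 3. The Golph3 shRNA values are nearly level with each other, with a coefficient of variation (CV, the SD as a share of the mean) of 1.70%, against 5.46% in the controls, and the groups do not overlap. The means were 1161 ± 19.7 CPM with Golph3 shRNA and 1800 ± 98.3 CPM in the controls (SD, n = 3 each). Krt7 thus fell by 0.63 on the log2 scale (SE 0.065), which is 1.55-fold lower with a 95% interval of 1.41 to 1.70 (edgeR adjusted p = 3.02e-06). These values rest on 5764 to 6509 counts per Golph3 shRNA library and 10947 to 13156.5 per control library.

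Krt8, the type II chain of the basic pair, had 267, 318 and 304 CPM with Golph3 shRNA, against 424, 447 and 469 CPM in the controls. Golph3 shRNA replicate 1 was the lowest library and control replicate 3 the highest. The means were 297 ± 26.4 CPM with Golph3 shRNA and 447 ± 22.3 CPM in the controls (SD, n = 3 each). Krt8 showed the smallest decrease of the 4, 1.51-fold with a 95% interval of 1.35 to 1.68 (log2 fold change -0.59, SE 0.076, edgeR adjusted p = 2.27e-05). The lowest control library was still 1.33 times the highest Golph3 shRNA library.

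Among the type I chains, Krt18, the usual partner of Krt8, had 1063, 1089 and 966 CPM with Golph3 shRNA, against 1639, 1823 and 1869 CPM in the controls. Here Golph3 shRNA replicate 3 was the lowest library. The means were 1039 ± 64.7 CPM with Golph3 shRNA and 1777 ± 122 CPM in the controls (SD, n = 3 each). The decrease was 1.71-fold with a 95% interval of 1.54 to 1.90 (log2 fold change -0.77, SE 0.072, edgeR adjusted p = 1.31e-06). Krt18 had a fractional estimate in all but 1 of the 6 libraries, while Krt7 was whole in 4 and Krt8 in 5. The counting method is not given, and whether reads were divided between Krt18 and a similar gene model was not tested.

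Krt19, the type I chain with little tail, had 102, 84.7 and 90.5 CPM with Golph3 shRNA, against 169, 170.4 and 208 CPM in the controls. The control values are uneven, with replicate 3 standing above the other two, but the lowest of them was 1.65 times the highest Golph3 shRNA library. The means were 92.5 ± 8.90 CPM with Golph3 shRNA and 182 ± 22.2 CPM in the controls (SD, n = 3 each). Krt19 showed the largest decrease of the 4, 1.97-fold with a 95% interval of 1.71 to 2.27 (log2 fold change -0.98, SE 0.097, edgeR adjusted p = 2.06e-06). It rests on 473 to 504 counts per Golph3 shRNA library and 1083 to 1319 per control library, and it is the only tested member with whole estimates in all 6 libraries.

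Krt20, the type I chain of differentiated gastric and intestinal surface cells, had 0 counts in each of the 6 libraries. A count of 0 allows up to 3 counts, or 0.537 to 0.608 CPM in the Golph3 shRNA libraries and 0.409 to 0.473 CPM in the controls; these limits cover counting error only. Since the IDs are mouse and the labelled cells human, a lack of reads on this ID is not read as a lack of the transcript, and whether its sequence could collect reads was not tested.

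Within the whole distribution of changes the 4 keratins lay on the lower flank, without being at its end. Of the 11400 tested IDs, 420 (3.68%) had a lower log2 fold change than Krt19 and 805 (7.06%) a lower one than Krt18. For Krt7 the number was 1226 (10.8%) and for Krt8 1383 (12.1%). By p-value they ranked further forward: 87 IDs (0.763%) had a smaller edgeR p-value than Krt18 and 387 (3.39%) a smaller one than Krt8. A p-value depends on the number of counts as well as on the fold, so this rank does not measure a larger change. The median fold of all IDs called lower was 1.51. Krt8 was close to that value, and the folds of the other tested keratins were above it.

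**Figure D2:**
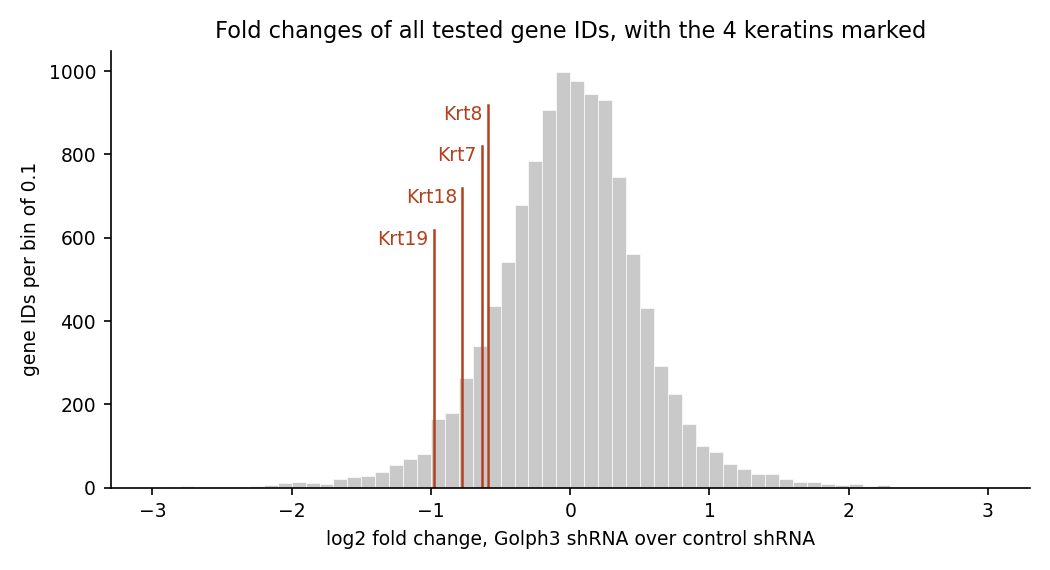
Number of tested gene IDs (y axis) by log2 fold change, Golph3 shRNA over control shRNA, in bins of 0.1 (x axis; 9 IDs beyond -3 or 3 are not drawn), with red lines at the 4 tested keratins. The keratins lie between -0.98 (Krt19) and -0.59 (Krt8), on the lower side of a distribution centred near 0.

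Together the keratin IDs took 0.257% ± 0.0099 of the estimated counts of a Golph3 shRNA library and 0.421% ± 0.018 of those of a control library (SD, n = 3 each). Their summed level was 2601, 2630.4 and 2537 CPM with Golph3 shRNA, against 3936, 4234 and 4447 CPM in the controls. The Golph3 shRNA libraries differ from each other by less than the controls do, and the means, 2590 ± 47.6 and 4205 ± 257 CPM (SD, n = 3 each), stand 1.62-fold apart. Most of the assigned counts in the sum are on Krt7 and Krt18. This does not rank the keratins by abundance, since counts also depend on gene length and on how well reads match each gene. The sum is given as a description, with no test.

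Because keratins act in type II and type I pairs, the ratio of assigned counts within a library was followed for 4 pairs. Such a ratio does not depend on library scaling, and its size also depends on gene length and on how well reads match each gene, so only the difference between groups is read. The pairs were not tested. The log2 ratio of Krt7 to Krt18 was 0.14, 0.065 and 0.28 with Golph3 shRNA and 0.057, -0.023 and 0.024 in the controls, a difference of 0.14. The log2 ratio of Krt7 to Krt19 was 3.52, 3.75 and 3.70 with Golph3 shRNA and 3.34, 3.40 and 3.19 in the controls, a difference of 0.35. For these 2 pairs every Golph3 shRNA library lay above every control library, for Krt7 to Krt18 only just (0.065 against 0.057). In these libraries counts of the type I chain were thus lower relative to Krt7. Both pairs contain Krt7, and how often other pairs of IDs separate in this way was not computed. Without Golph3 shRNA replicate 3 the difference for Krt7 to Krt18 was 0.082.

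For the pairs with Krt8 the groups overlapped. The log2 ratio of Krt8 to Krt18, the basic pair, was -1.99, -1.77 and -1.67 with Golph3 shRNA and -1.95, -2.03 and -1.99 in the controls, a difference of 0.18. The log2 ratio of Krt8 to Krt19 was 1.39, 1.91 and 1.75 with Golph3 shRNA and 1.33, 1.39 and 1.17 in the controls, a difference of 0.38. In both pairs Golph3 shRNA replicate 1, the library with the lowest Krt8, lay within the control range, and the other two Golph3 shRNA libraries lay above it. The difference for Krt8 to Krt18 ran from 0.11 without Golph3 shRNA replicate 3 to 0.27 without Golph3 shRNA replicate 1.

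**Figure D3:**
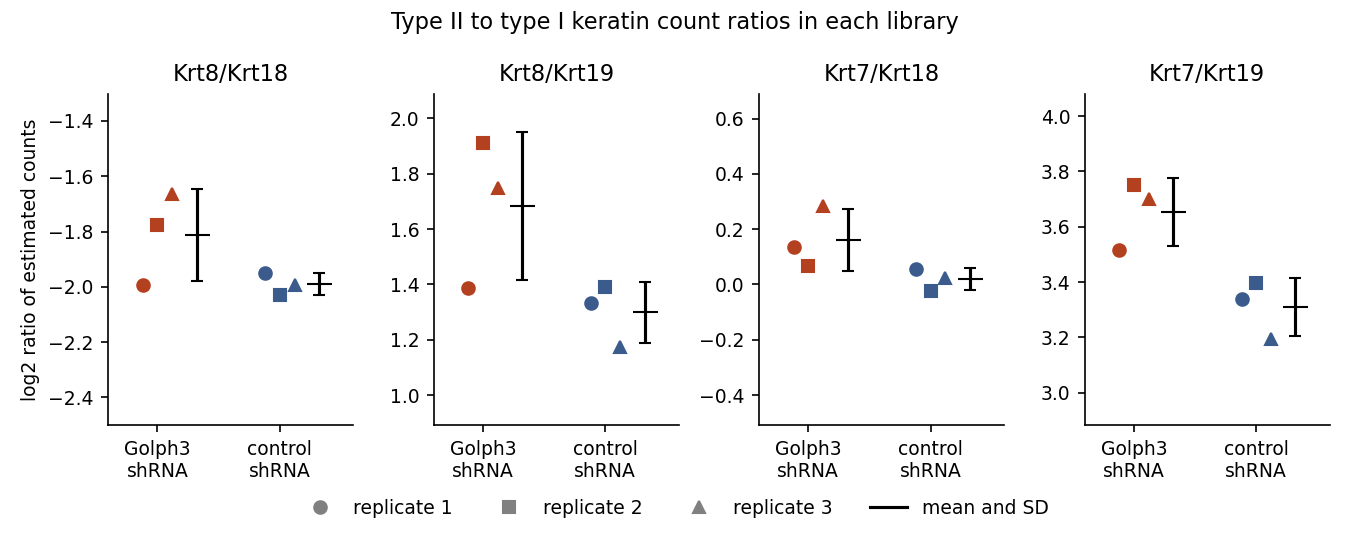
Log2 ratio of the estimated counts of a type II to a type I keratin in each library (y axes span 1.2 log2 units in every panel), Golph3 shRNA left and control shRNA right; symbols are libraries, the bar beside them the mean and SD. The groups are separate for Krt7/Krt18 and Krt7/Krt19 and overlap for the pairs with Krt8, where Golph3 shRNA replicate 1 lies with the controls.

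In the human annotation (GRCh38.p14) KRT7, KRT8 and KRT18 lie on chromosome 12 and KRT19 and KRT20 on chromosome 17. KRT18, of type I, lies beside the type II gene KRT8: 0 protein-coding genes separate it from KRT8, and 23 separate KRT8 from KRT7. The levels in this report are for mouse IDs, and mouse positions were not looked up. The Krt8 and Krt18 IDs had decreases of 1.51-fold and 1.71-fold, and their 95% intervals, 1.35 to 1.68 and 1.54 to 1.90, overlap. The Krt19 ID, whose human gene lies on the other chromosome, had an interval of 1.71 to 2.27. This interval starts just above the upper ends for Krt7 (1.70) and Krt8 (1.68), and it overlaps that of Krt18. These differences between members were not tested.

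The profiles of the 4 keratins across the 6 libraries were compared by the root mean square difference (RMS) of log2 CPM, each ID centred on its own mean. Krt7 and Krt8 were the nearest members, 0.086 apart, followed by Krt7 and Krt18 at 0.099. Krt8 and Krt19 were the farthest, at 0.25. Among 9534 other IDs with a mean of at least 5 CPM, 142 (1.49%) were nearer to Krt7 than Krt18 was, and 2442 (25.6%) were nearer to Krt8 than Krt19 was. These shares depend on the member they are counted from. Counted from the other member of each pair, 58 (0.608%) were nearer to Krt18 than Krt7 was, and 563 (5.91%) nearer to Krt19 than Krt8 was. The profiles hold the difference between the groups, so this describes the same values and is no separate result.

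The IDs nearest to Krt7 were ENSMUSG00000036231.5 at an RMS of 0.039 and ENSMUSG00000020581.11 at 0.045; the table gives neither a symbol. ENSMUSG00000036231.5 had 104, 108 and 114 CPM with Golph3 shRNA, against 160.03, 169 and 176 CPM in the controls (log2 fold change -0.63, SE 0.076). ENSMUSG00000020581.11 had 2399, 2182 and 2323 CPM with Golph3 shRNA, against 3375, 3437 and 3534 CPM in the controls (log2 fold change -0.58, SE 0.064). Both IDs were part of the same edgeR fit. They were chosen by their likeness to Krt7 over these same libraries, so their lower values with Golph3 shRNA follow from that choice. No p-value is therefore given for them.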

How the data were processed

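Estimated counts, not all whole numbers, were deposited by the authors for 6 libraries in 1 table with a row for each gene ID; the submitters' processing notes name the mouse build mm10, and per the labels' protocols the libraries were made with a stranded messenger RNA kit. The sources used here do not give the aligner, counter, annotation or strand setting. Groups were taken from the sample titles. The 5 IDs came paired with symbols in the definition of the set; 0 other IDs matched the gene name tables used here, so the lists fixed by symbol were not analysed. Members and lists were chosen with earlier results of these data known. Besides the members, the rule named the 2 IDs whose profile was nearest to that of the member with the highest mean CPM.

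Estimated counts were rounded, filtered with filterByExpr (99.7% to 99.8% of each library's counts kept) and compared with edgeR 4.0.16 in R 4.3.3 (TMM factors, quasi-likelihood F test, Benjamini-Hochberg adjustment over all 11400 tested IDs). The SE was obtained as the absolute log2 fold change over the root of the F statistic. Intervals use the t distribution at the fit's degrees of freedom, 16.04 for each tested keratin. Part of these degrees of freedom comes from the spread of other IDs, which the quasi-likelihood fit shares across IDs. CPM use TMM-scaled library sizes; profiles use log2 CPM with a prior count of 2. Alternatives used DESeq2 1.42.0, limma 3.58.1 (voom), other scalings and filters, thinning, whole estimates, a replicate block and libraries left out. Before use, the edgeR fit was tested on simulated data with known changes. That simulation changed far fewer IDs than were called here and drew counts from the model that edgeR assumes. It therefore does not show how the fit behaves on these data.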

Additional observations from a re-analysis of the deposited data

How the results depend on the processing

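The decreases of Krt7, Krt8, Krt18 and Krt19 kept their direction and their call in every alternative run for them: RLE, upper quartile and total-count scaling, DESeq2, limma-voom, no filter, a 1 CPM filter, thinning, the replicate block, and each library left out in turn. Krt19 alone could also be tested among the IDs with whole estimates (log2 fold change -0.96). With a library left out, log2 fold changes ran from -0.67 to -0.60 for Krt7, from -0.65 to -0.53 for Krt8, from -0.83 to -0.73 for Krt18 and from -1.06 to -0.88 for Krt19, with edgeR adjusted p of at most 0.00057. Over all IDs, 1644 to 1929 were then called lower and 1425 to 1665 higher. Among the IDs with whole estimates 1240 were called lower, where 6263 IDs were tested in place of 11400. With the replicate number as a block the log2 fold changes were -0.63, -0.59, -0.77 and -0.98 for Krt7, Krt8, Krt18 and Krt19, and 2045 IDs were called lower and 1842 higher. Deviations of same-numbered libraries correlated at 0.032, 0.090 and 0.044 across IDs for replicates 1, 2 and 3. Between libraries with different numbers the correlations ran from -0.086 to 0.037. The matching number gave the highest correlation for every Golph3 shRNA library and for control replicates 2 and 3. Control replicate 1 correlated slightly more with Golph3 shRNA replicate 3 (0.037) than with Golph3 shRNA replicate 1 (0.032). All of these correlations are small, and whether same-numbered libraries are pairs was not tested. Differences in log2 ratio ran from 0.11 to 0.27 (Krt8/Krt18), 0.27 to 0.53 (Krt8/Krt19), 0.082 to 0.19 (Krt7/Krt18) and 0.29 to 0.42 (Krt7/Krt19) with a library left out. The log2 difference of the summed level was -0.70, and ran from -0.74 to -0.66. For Krt20, with 0 counts in all 6 libraries, no level below the limits given could be seen at this depth; why it had no counts was not tested.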
